A study of Danio rerio with 5 samples.

Results

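Endothelial cells were described in fluorescence-sorted cells of zebrafish larvae 5 days after fertilization. Members were single-cell barcodes selected on measured values, with a UMI (a counted transcript molecule) of at least 4 of 7 genes, namely kdrl, cdh5, pecam1, tie1, plvapa, cldn5b and fli1a. Before that choice, barcodes with under 500 genes or with over 10% of UMIs in the 13 mitochondrially encoded protein genes were removed. This left 124 endothelial barcodes of 13786 kept, 45 of 5935 in single-cell library 1 and 79 of 7851 in library 2. The single-cell libraries hold cells positive for EGFP under pdgfrb control (strain Tg(pdgfrb:egfp)ncv22), made with 10x 3′ v3 chemistry. A second data set of 3 bulk libraries (um148 libraries 1 to 3) holds cells positive for citrine under pdgfrb control, sorted from fish of strain Tg(pdgfrb:citrine)s1010 that carry um148, written in the strain label as an allele of pdgfb. The wild-type cells that the authors' deposited table sets against um148 are not among the samples, and their values were not used here. The reporters therefore mark cells by pdgfrb activity, and every endothelial barcode below had come through a sort for it. No label ties the libraries of a group to separate clutches or animals.

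Endothelial cells line blood and lymphatic vessels and the heart. They respond to Vegf through the receptors Kdr, Kdrl, Flt1 and Flt4, hold to each other through Cdh5 (VE-cadherin) and claudins, and release Pdgfb, the ligand that draws Pdgfrb-bearing pericytes and smooth muscle onto the vessel wall. They differ by vessel: arteries show strong Notch signalling, veins and lymphatics express scavenger and hyaluronan receptors such as Stab1, Stab2 and Lyve1, and brain capillaries carry the transporters of the blood-brain barrier. Mural cells (pericytes and smooth muscle) lie directly on the endothelium.

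Endothelial barcodes made up 0.758% of kept barcodes in library 1 (exact 95% binomial interval 0.554 to 1.01) and 1.01% in library 2 (0.797 to 1.25), a mean of 0.882% ± 0.175 (SD, n = 2). The intervals cover counting error only. Library 1 held 70247500 UMIs in 12121 barcodes and library 2 held 77896721 in 10182, and the mitochondrial limit alone removed 3976 and 407 barcodes. Of all removed barcodes, 1 in each library had at least 4 of the 7 genes. The limit thus bears mainly on the number of kept barcodes under the share, and more so in library 1. Of the barcode sequences 30 occurred in both libraries, 11 of them kept in both, and no endothelial barcode was among the shared ones.

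Endothelial barcodes were far deeper than the rest. Their median was 23946 UMIs in library 1 and 23004 in library 2, against 5798 and 6294.5 UMIs in other kept barcodes. Their median of detected genes was 4050 and 4154, against 1413 and 1510. The choice of members favours depth, since a barcode with more UMIs is more likely to show 4 genes. Of kept barcodes with at least 20000 UMIs, 25 of 459 and 46 of 699 were endothelial (5.45% and 6.58%), and of those under 10000 UMIs, 2 of 4423 and 13 of 5699. Shallow endothelial cells can thus be missing from the share. In the plot of depth by number of detected genes, the median is higher with every added gene up to 3 in both libraries, and the 13 and 23 barcodes with exactly 3 genes fall just outside the rule.

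**Figure D1:**
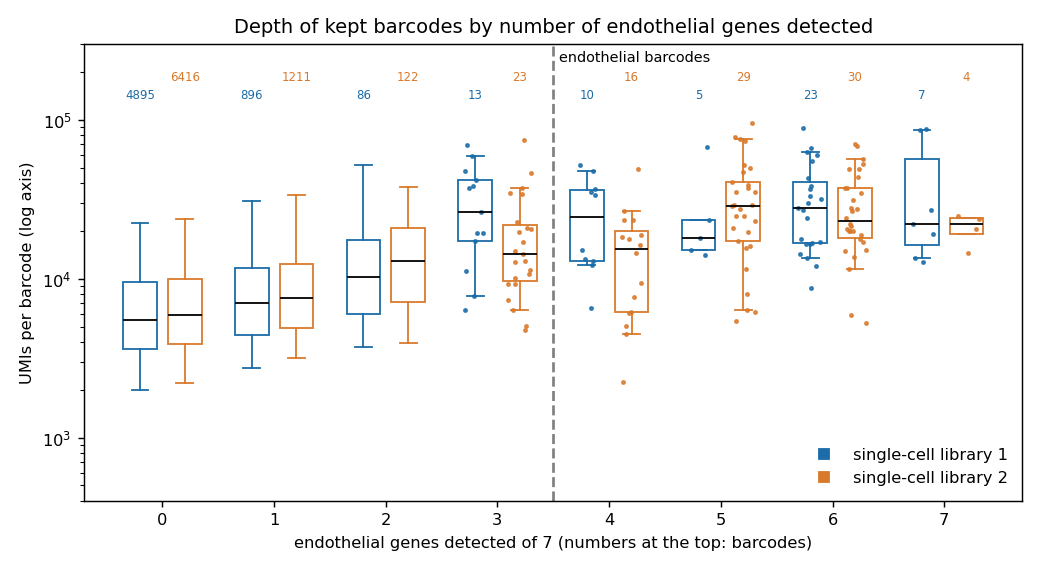
UMIs per kept barcode (log axis) by how many of the 7 endothelial genes had a UMI, for single-cell libraries 1 and 2. Boxes give the quartiles and the median, whiskers the 5th and 95th percentiles, points the single barcodes from 3 genes up; the median is 5516 and 5935 UMIs at 0 genes and 24293 and 15372 at 4.

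Just inside the limit, at 4 genes, the summed level of 32 other endothelial genes that the rule did not use had a median of 3807 CPM in 10 barcodes of library 1 and 6124 CPM in 16 barcodes of library 2. CPM are UMI counts scaled to 1000000 UMIs, per barcode here and over summed barcodes further on. Just outside it, at 3 genes, the medians were 989 and 3025 CPM, and at 0 genes 298 and 309 CPM. Barcodes with 3 genes in library 2 were therefore closer to the endothelial ones than those in library 1.

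The 7 choosing genes check the label, and their difference from other barcodes follows from the rule and was not tested. The adherens junction gene cdh5 (LL0000005336) had 264 and 243 CPM in endothelial barcodes of libraries 1 and 2, against 1.31 and 0.953 CPM in other kept barcodes. Vegf receptor gene kdrl (LL0000013260) had 170.2 and 195 CPM in endothelial barcodes, against 4.41 and 4.09 CPM in the others. The adhesion gene pecam1 (LL0000021586) had 81.9 and 90.1 CPM in endothelial barcodes, against 0.0195 and 0.0981 CPM in the others, where 1 and 7 UMIs were found. All 3 had low levels or were near absent outside the chosen barcodes, but the other barcodes are many and held a large part of the kdrl UMIs. Endothelial barcodes held 51.8 and 59.3% of kdrl UMIs, against 84.9 and 88.6% for cdh5 and 99.2 and 96.6% for pecam1. Among the remaining choosing genes, cldn5b and fli1a were also read in many other barcodes. The tight junction gene cldn5b had 288 and 332 CPM in endothelial barcodes against 13.4 and 11.6 CPM in the others, and the ETS factor gene fli1a had 86.8 and 99.2 CPM against 13.3 and 13.9 CPM. The orphan receptor gene tie1 had 117 and 102 CPM against 0.917 and 0.743 CPM. For plvapa, which codes for the protein of endothelial pore diaphragms, 24.4 and 16.5% of endothelial barcodes had a UMI, whereas its near copy plvapb reached 88.9 and 81.0%. How the authors' counting split reads between the copies is not given in the sources used here.

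Shares of barcodes with a UMI depend on depth. For cdh5 the share was 95.6 and 84.8% in endothelial barcodes, against 1.27 and 0.553% in barcodes with at least 3 of 7 neuron markers, a population that should lack it, at median depths of 23946 and 23004 UMIs in endothelial and 3741.5 and 3883 UMIs in neuron-marker barcodes. With each barcode thinned to 1000 UMIs, which left out no barcode, the cdh5 share was 22.2 and 16.5% in endothelial barcodes and 0.316 and 0.111% in neuron-marker barcodes. Thinned kdrl was found in 17.8 and 21.5% against 0 and 0.221%. Both genes chose the members, so these differences follow from the rule.

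Beyond the choosing genes, a gene was called enriched where its CPM in endothelial barcodes was at least 4-fold that of other kept barcodes, was at least 20, and came with a UMI in at least 10% of endothelial barcodes, each in both libraries. This is a rule of size, with no test, because the same cells defined the members. Of 3783 genes that could pass, 150 did (3.97%), the 7 choosing genes among them. The median gene that could pass had a log2 ratio of 0.18 in library 1 and 0.20 in library 2. A list of 32 endothelial genes that excludes the choosing ones had 21 enriched, and 31 of 32 were higher in endothelial barcodes in both libraries. Over the 30 that could pass, the median log2 ratio was 4.21 and 4.46. The member that was not higher, esamb, had no UMI in endothelial barcodes.

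**Figure D2:**
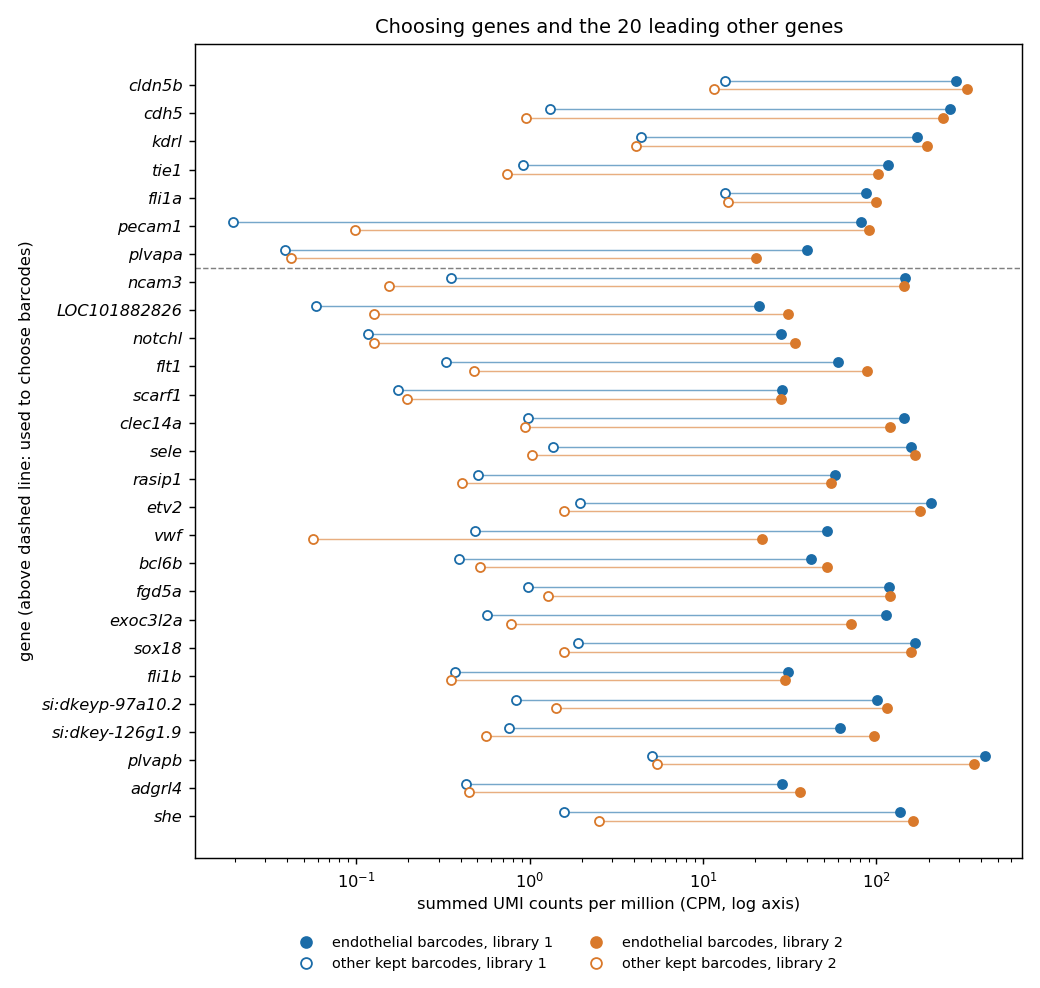
Summed CPM (log axis) of the 7 choosing genes and of the 20 enriched genes with the largest fold, in endothelial barcodes (filled) and other kept barcodes (open) of both libraries. Each line joins the values of 1 library; endothelial levels of the 20 other genes run from 21.0 CPM for LOC101882826 to 422 CPM for plvapb.

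Among transcription factors, 7 of 24 listed genes were enriched, with 15 that could pass. The ETS factor etv2, which starts the endothelial programme in the embryo, had 207 and 179 CPM in endothelial barcodes against 1.95 and 1.57 CPM in the others. The SoxF genes sox18 and sox7 had 167 and 159 CPM and 229.7 and 253 CPM, against 1.91 and 1.58 CPM and 6.14 and 5.30 CPM. Further enriched factors were fli1b, erg, lmo2 and the flow-responsive klf2b, with 29.7, 74.5, 86.4 and 113 CPM in endothelial barcodes of library 2. The third SoxF gene, sox17, was barely found, at 1.4 and 1.83 CPM.

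Junction and surface genes formed the next group, with 5 of 17 measured junction genes enriched. Of these, cdh5, pecam1 and cldn5b were choosing genes, so their enrichment follows from the rule. The other enriched junction genes were the adhesion gene esama and cgnl1, a cingulin-like junction gene. The level of esama was 44.8 and 47.1 CPM in endothelial barcodes, against 1.46 and 1.33 CPM in the others. For cgnl1 the values were 63.0 and 62.6 CPM against 14.6 and 13.3 CPM. Among surface genes, the lectin clec14a had 144 and 119 CPM against 0.975 and 0.939 CPM and sele, the E-selectin gene, had 158 and 166 CPM against 1.37 and 1.04 CPM. The lumen gene rasip1 had 57.4 and 54.9 CPM against 0.507 and 0.407 CPM, and plvapb had 422 and 367 CPM against 5.07 and 5.45 CPM. A pair of genes rested on few barcodes. The neural-cell-adhesion family gene ncam3 reached 146 and 144 CPM with a UMI in only 15.6 and 15.2% of endothelial barcodes, and vwf, the von Willebrand factor gene, reached 51.8 and 21.9 CPM in 33.3 and 16.5%. In neuron-marker barcodes the shares were 0.316 and 0.332% for ncam3 and 0.633 and 0% for vwf. The remaining genes of the leading 20 were LOC101882826, notchl, the scavenger receptor gene scarf1, the transcription factor gene bcl6b, the exchange factor gene fgd5a, exoc3l2a, si:dkeyp-97a10.2, si:dkey-126g1.9, the adhesion receptor gene adgrl4 and the adaptor gene she. Of these, she was found in 93.3 and 89.9% of endothelial barcodes, at 137 and 161 CPM against 1.58 and 2.51 CPM in the others, and fgd5a in 88.9 and 88.6%, at 118 and 120.3 CPM against 0.975 and 1.28 CPM.

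Of 16 Vegf genes, the 4 tyrosine kinase receptor genes were enriched, the choosing gene kdrl among them, and no ligand or neuropilin gene was. Beside kdrl, the second Vegf receptor 2 gene kdr had 104 and 105 CPM in endothelial barcodes against 1.64 and 1.85 CPM in the others, flt1, whose protein can act as a decoy for Vegf, had 60.2 and 87.8 CPM against 0.332 and 0.477 CPM, and flt4 had 46.9 and 48.5 CPM against 4.39 and 4.39 CPM. The ligand gene vegfaa had 28.0 and 49.8 CPM against 39.0 and 37.4 CPM in the others, so it was lower in endothelial barcodes of library 1 and higher in those of library 2. The lymphatic growth factor gene vegfc had 37.8 and 25.6 CPM in endothelial barcodes against 11.6 and 12.0 CPM in the others, and the co-receptor gene nrp1a had 106 and 69.5 CPM against 56.5 and 59.0 CPM. Of 8 angiopoietin and Tie genes, 4 were enriched. These were the choosing gene tie1, its partner receptor tek, the receptor phosphatase ptprb and the ligand angpt2a. The level of tek was 22.4 and 31.5 CPM against 0.585 and 0.477 CPM, and that of ptprb 56.7 and 50.8 CPM against 1.15 and 0.967 CPM. For angpt2a the values were 32.2 and 80.9 CPM against 1.56 and 0.645 CPM. The endothelial level of angpt2a was thus far higher in library 2 than in library 1.

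Pdgf genes are of interest here because the endothelium is a source of the ligand that the pdgfrb-marked cells receive. The ligand gene pdgfbb (LL0000021521) had 44.1 and 37.0 CPM in endothelial barcodes, against 1.91 and 1.39 CPM in other kept barcodes, and was the enriched member among 8 Pdgf genes. Its copy pdgfba (LL0000021520) had 49.7 and 69.5 CPM against 17.3 and 15.2 CPM and fell short of the 4-fold limit in library 1. A UMI of pdgfbb was found in 53.3 and 36.7% of endothelial barcodes, and one of pdgfba in 53.3 and 63.3%. In neuron-marker barcodes the shares were 1.58 and 1.11% and 3.48 and 4.42%. The receptor gene pdgfrb (LL0000021525), whose regulatory sequence drives the sorted reporter, had 77.7 and 70.4 CPM in endothelial barcodes against 53.3 and 56.2 CPM in the others, with a UMI in 57.8 and 58.2% of endothelial barcodes. In other barcodes of like depth, those at or above the lower quartile of endothelial depth, pdgfrb had 28.8 and 26.5 CPM. In the endothelial barcodes with fewer than 3 of 7 pericyte markers it had 29.1 and 31.4 CPM. The pdgfbb level in those barcodes was 77.7 and 8.38 CPM, so the libraries went apart and the gene missed the 20 CPM minimum in library 2.

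In the Notch pathway, 3 of 16 genes were enriched, all of them ligands, and 11 could pass. The arterial and tip-cell ligand gene dll4 had 191 and 170.1 CPM in endothelial barcodes against 6.18 and 6.63 CPM in the others, dlc had 39.2 and 49.4 CPM against 4.64 and 5.96 CPM, and jag2b had 36.4 and 25.6 CPM against 4.58 and 5.13 CPM. The receptor gene notch1b had 71.4 and 59.0 CPM in endothelial barcodes against 15 and 15.4 CPM in the others and fell short of 4-fold in library 2. Its copy notch1a had 79.8 and 74.1 CPM against 28.6 and 25.1 CPM. The receptor gene notch3, best known from mural cells, had 118 and 89.6 CPM in endothelial barcodes against 81.5 and 82.1 CPM. Of 19 flow and vasoactive genes, with 10 that could pass, klf2b alone was enriched. Its copy klf2a had 104 and 130.3 CPM in endothelial barcodes against 29.8 and 28.4 CPM in the others, and the apelin receptor gene aplnrb had 16.8 and 20.6 CPM against 0.858 and 0.701 CPM and missed the 20 CPM minimum in library 1. No basement membrane gene of 16 was enriched, with 15 that could pass. The share enriched over all genes that could pass was 3.97%, so 0 of 15 is near that share. The collagen gene col4a1 had 635 and 625 CPM in endothelial barcodes against 226 and 223 CPM in the others. Of 15 guidance genes, with 10 that could pass, 2 were enriched. These were robo4, a vascular Roundabout receptor gene (48.3 and 73.6 CPM against 4.97 and 5.45 CPM), and the chemokine receptor gene cxcr4a (29.4 and 123 CPM against 6.07 and 6 CPM). The chemokine gene cxcl12a, whose protein binds Cxcr4, had 441 and 302 CPM in endothelial barcodes against 473 and 512 CPM in the others.

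Vessel types were compared within the endothelial barcodes. Enriched members numbered 5 of 8 venous genes, 5 of 9 lymphatic genes, 2 of 8 arterial genes, 2 of 8 endocardial genes and 0 of 13 brain barrier genes. Members that could pass numbered 6, 6, 4, 4 and 6 in that order. Over all genes that could pass, 3.97% were enriched. The enriched arterial members were dll4 and cxcr4a, and the enriched endocardial ones klf2b and tek, none of which is restricted to that vessel. The arterial ligand gene efnb2a had 81.2 and 73.6 CPM in endothelial barcodes against 29.3 and 31.3 CPM in the others, and its venous receptor gene ephb4a had 36.4 and 32.9 CPM against 16.0 and 17.3 CPM. Both were found together in 51 barcodes, of 78 with efnb2a and 73 with ephb4a. The venous and lymphatic lists share flt4, stab1, stab2 and mrc1a, so both counts rest largely on the same genes. A UMI of the scavenger receptor gene stab1 was found in 37.8 and 40.5% of endothelial barcodes, one of lyve1b, a hyaluronan receptor gene, in 31.1 and 34.2%, one of the mannose receptor gene mrc1a in 20 and 24.1% and one of stab2 in 15.6 and 22.8%. In neuron-marker barcodes the shares were 0.791 and 0.442% for stab1, 0.475 and 0.111% for lyve1b, 0.475 and 0% for mrc1a and 2.37 and 2.32% for stab2. These genes were found together: of 25 barcodes with stab2, 22 had stab1 and 22 had lyve1b. The lymphatic regulator prox1a had 5.60 and 14.2 CPM in endothelial barcodes as a whole. In library 1 it was found in 4 barcodes, 2 of them with lyve1b and 2 with flt4. In library 2 it was found in 16, of which 12 had lyve1b and 12 had flt4. Arterial dll4 was found in 104 of 124 barcodes, 39 of them with flt4, and so did not separate vessel types.

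One brain barrier transporter was not found together with scavenger receptors. The glucose transporter gene slc2a1a had 15.4 and 70.9 CPM in endothelial barcodes against 0.585 and 0.533 CPM in the others. It had a UMI in 11 of 124 and missed the 20 CPM minimum of the enriched rule in library 1. Its copy slc2a1b was found more widely, in 66.7 and 69.6% of endothelial barcodes, and the lipid transporter gene mfsd2aa in none. None of these 11 had a UMI of stab1, stab2, lyve1b, mrc1a or flt4, which were found in 49, 25, 41, 28 and 48 barcodes. Of the 11, 8 had slco1c1, a thyroid hormone transporter gene, 8 had slc16a1a, a monocarboxylate transporter gene, and all 11 had the tight junction gene cldn5a and dll4. The other transporter genes were not so separate, since 2 of 13 barcodes with slco1c1 and 2 of 11 with slc16a1a also had stab1. After these values were seen, barcodes were grouped for description, with no test. A barrier group had at least 2 of slc2a1a, slco1c1 and slc16a1a (3 barcodes in library 1, 8 in library 2), a scavenger group had at least 2 of stab1, stab2, lyve1b and mrc1a (12 and 26), and 30 and 45 barcodes were in neither. No barcode was in both groups. This was largely fixed beforehand, since 10 of the 11 barrier barcodes had slc2a1a, already seen apart from the scavenger genes. Median depth was 23447 and 27565 UMIs in the barrier group, 20443.5 and 23998.5 in the scavenger group, and 27453.5 and 20558 in neither.

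**Figure D3:**
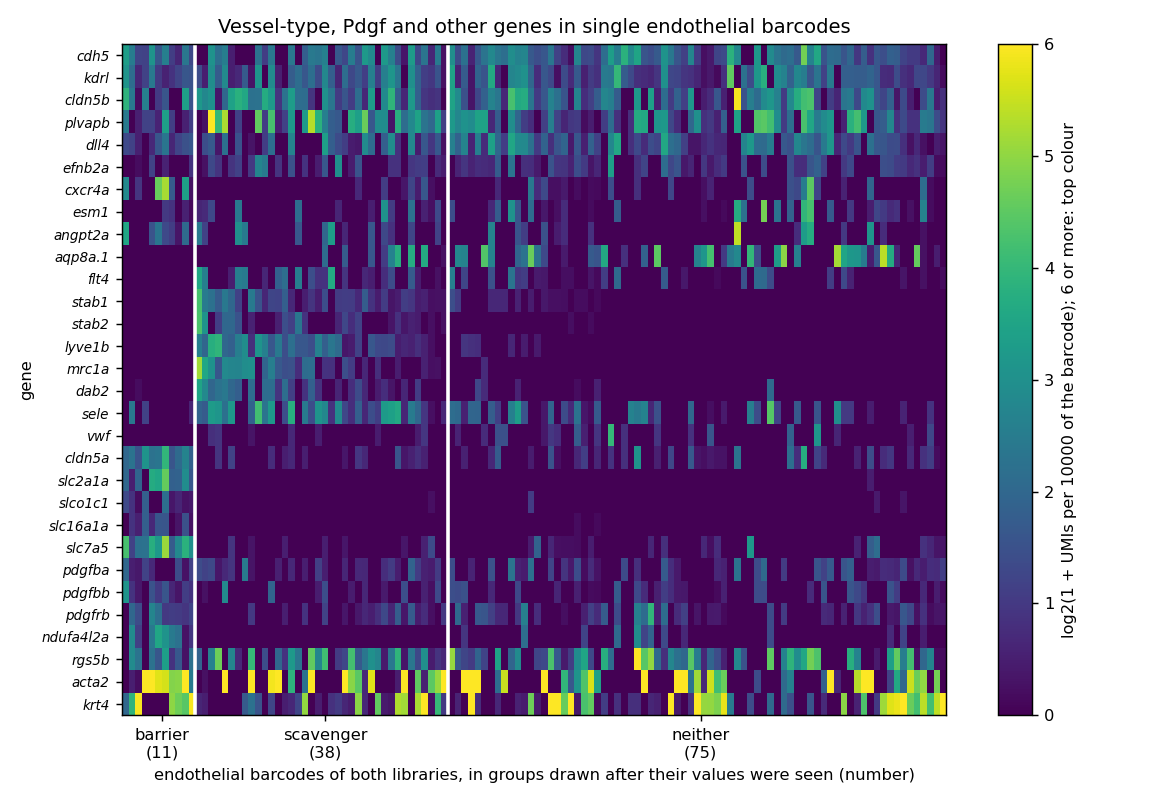
UMIs per 10000 of each barcode, on a log2(1 + value) colour scale, for 30 genes (rows) in all 124 endothelial barcodes (columns). White lines part the barrier group (11 barcodes), the scavenger group (38) and the barcodes in neither (75), groups that were drawn on slc2a1a, slco1c1, slc16a1a, stab1, stab2, lyve1b and mrc1a; ndufa4l2a is seen in 9 barrier barcodes and in no scavenger barcode.

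Genes that did not define the groups differed in whether they followed the barrier group. For cldn5a, dab2 and prox1a, co-detection with the defining genes was among the values seen before the groups were drawn. Their pattern was therefore partly known beforehand. The amino acid transporter gene slc7a5 had 411 and 939 CPM in barrier barcodes of libraries 1 and 2, against 10.0 and 20.8 CPM in scavenger barcodes. The levels of cldn5a were 247 and 424 CPM in barrier barcodes against 36.8 and 22.2 CPM in scavenger barcodes. The capillary carbonic anhydrase gene ca4a was found in 11 of 11 barrier barcodes, against 2 of 38 scavenger barcodes and 14 of 75 in neither group, and its level was 257 and 399 CPM in barrier barcodes against 6.70 and 0 CPM in scavenger barcodes and 265 and 104 CPM in neither. The listed barrier gene mfsd2ab did not follow, with 5 of 11 barrier barcodes (10.3 and 21.8 CPM) against 15 of 38 scavenger barcodes (23.4 and 19.3 CPM). In the other direction by level, the pore diaphragm gene plvapb had 61.7 and 145 CPM in barrier barcodes against 1125 and 549 CPM in scavenger barcodes. Barcodes in neither group had 252 and 318 CPM of plvapb. By share the groups were alike, with a UMI of plvapb in 9 of 11 barrier, 32 of 38 scavenger and 63 of 75 other endothelial barcodes. The endocytic adaptor gene dab2 was found in 1 of 11 barrier barcodes, against 25 of 38 scavenger barcodes. The chemokine-binding receptor gene gpr182 was found in 0 of 11 against 26 of 38. The lymphatic regulator gene prox1a was found in 2 of 11 barrier barcodes, 14 of 38 scavenger barcodes and 4 of 75 in neither group. Its level was 20.6 and 3.63 CPM in barrier, 16.7 and 35.6 CPM in scavenger, and 0.969 and 4.85 CPM in neither, so the groups differed between libraries. Vessel water channel gene aqp8a.1 was at 0 in the barrier group and was found in 9 of 38 scavenger barcodes and 40 of 75 barcodes in neither group.

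Some pericyte genes were found in a larger share of the barrier group, and others were not. The gene ndufa4l2a, a relative of a respiratory chain subunit gene that the study reports as a pericyte marker, met the enriched rule in endothelial barcodes as a whole, at 34.3 and 51.7 CPM against 4.72 and 4.35 CPM in the others. It was found in 9 of 11 barrier barcodes (81.8%, exact 95% interval 48.2 to 97.7), in 0 of 38 scavenger barcodes and in 13 of 75 barcodes in neither group. The interval covers counting error only. It pools barcodes of both libraries, which are not replicates, in groups drawn after values were seen. The level of ndufa4l2a was 236 and 301 CPM in barrier barcodes. Its 0 UMIs in scavenger barcodes allow up to 10.0 and 4.45 CPM at a floor of 3 counts. The channel gene kcnj8 was found in 8 of 11 barrier barcodes and 4 of 38 scavenger barcodes, pdgfrb in 9 of 11 and 18 of 38, and kcne4, a potassium channel subunit gene also reported by the study, in 10 of 11 and 11 of 38. The pericyte gene rgs5b did not share the pattern, with 422 and 279 CPM in barrier barcodes against 288 and 599 CPM in scavenger barcodes. Nor did rgs5a, found in 7 of 11 barrier barcodes (0 and 308 CPM) against 24 of 38 scavenger barcodes (107 and 196 CPM). At least 3 of 7 pericyte markers were found in 9 of 11 barrier barcodes and in 20 of 38 scavenger barcodes. Markers of other cell types also differed between the groups, but not alike in both libraries. At least 3 of 10 smooth muscle genes were found in 10 of 11 barrier and 24 of 38 scavenger barcodes. In library 1 these were 2 of 3 and 9 of 12, and in library 2 they were 8 of 8 and 15 of 26. The level of acta2 was 20.6 and 4358 CPM in barrier barcodes of libraries 1 and 2, against 2725 and 2664 CPM in scavenger barcodes. The larger smooth muscle share of the barrier group thus came from library 2. The epidermal keratin gene krt4 had 4565 and 3165 CPM in barrier barcodes against 2126 and 498 CPM in scavenger barcodes. By share it was not higher, with a UMI in 7 of 11 barrier and 27 of 38 scavenger barcodes. In library 1 these were 3 of 3 and 9 of 12, and in library 2 they were 4 of 8 and 18 of 26. The deepest barrier barcodes of libraries 1 and 2, with 67240 and 95761 UMIs, had the highest krt4 levels of the group in their library. The part of these other transcripts in the pericyte genes of the barrier group was not tested.

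Transcripts of other cell types were measured in all endothelial barcodes with 10 marker lists. At least 3 pericyte markers were found in 28 of 45 endothelial barcodes in library 1 and 47 of 79 in library 2 (62.2 and 59.5%), against 28.6 and 25% of other barcodes of like depth. For 10 smooth muscle genes the shares were 77.8 and 65.8% of endothelial barcodes against 36.0 and 31.5% of the others of like depth. Both mural lists were found in a larger share of endothelial barcodes. The depth limit on the others is one-sided, with medians of 23946 and 23004 UMIs in endothelial barcodes and 22412 and 22692 UMIs in the others, so depth was close and not matched. For fibroblast genes the shares were 82.2 and 75.9% against 78.1 and 76.9%, and for epidermal genes 35.6 and 36.7% against 53.6 and 51.5%. Neuron markers reached 3 in 4.44 and 5.06% of endothelial barcodes, against 9 and 8.86%, and leukocyte markers in none. For chondrocyte genes the shares were 22.2 and 19.0% against 24.7 and 24.1%, for skeletal muscle genes 35.6 and 25.3% against 29.7 and 27.7%, for glial genes 4.44 and 11.4% against 6.29 and 8.07% and for erythroid genes 2.22 and 1.27% against 1 and 1.49%. Of these 4 lists, the endothelial share was above that of the others for skeletal muscle and erythroid genes in library 1 and for glial genes in library 2. The leukocyte genes ptprc and csf1ra were at 0 in endothelial barcodes of both libraries. Of 8 erythroid genes, hbaa1, hbba1 and gata1a were at 0 there. The summed erythroid level was 629 and 202 CPM in endothelial barcodes against 478 and 689 CPM in other kept barcodes, and single endothelial barcodes reached 29549.7 and 48844 CPM.

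**Figure D4:**
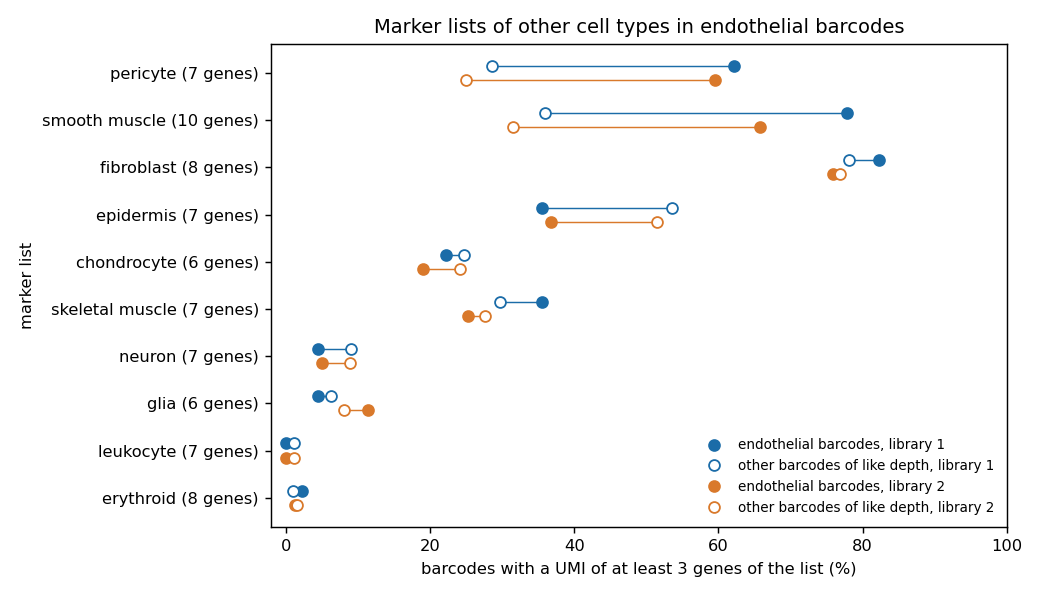
Share of barcodes (%) with a UMI of at least 3 genes of each of 10 marker lists, in endothelial barcodes (filled) and in other kept barcodes of like depth (open), for libraries 1 and 2. Endothelial barcodes lie to the right for the pericyte and smooth muscle lists in both libraries and to the left for the epidermal list.

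The level of the mural genes varied widely between endothelial barcodes. The contractile gene acta2 had a median of 57.9 CPM over 45 barcodes in library 1 (range 0 to 15802) and of 40.3 CPM over 79 in library 2 (0 to 35271), against a median of 0 in other barcodes of like depth in each library. Levels of rgs5b had medians of 219 and 203 CPM, against 0 in each library. The summed smooth muscle list ran from 0 to 41892 CPM in library 1 and from 0 to 135559 CPM in library 2. Its median was 1079 and 877 CPM in endothelial barcodes, against 80.6 and 89.8 CPM in the others of like depth. At least 3 genes of 2 or more of the 10 lists occurred in 37 of 45 and 63 of 79 endothelial barcodes (82.2% and 79.7%), against 78.0% and 76.0% of other barcodes of like depth. Scores from simulated doublets had medians of 0.0718 and 0.117 in endothelial barcodes, against 0.0356 and 0.0446 in other kept barcodes. These others were of all depths and mostly shallower, and the part of depth in the scores was not tested. The automatic threshold on these scores was recorded as marking 0 barcodes. The same 0 would be recorded had no threshold been found. Removing the highest scores at a rate of 0.8% per 1000 barcodes took 5 of 45 and 19 of 79 endothelial barcodes (11.1% and 24.1%), against 4.75% and 6.28% of all kept. The part of doublets in the mural transcripts was not tested.

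Endothelial barcodes were also set against barcodes with at least 3 pericyte markers that were not endothelial (736 in library 1 and 1049 in library 2). By the same rule 138 of 3783 genes were enriched over them (3.65%), and 128 of these were among the 150. The endothelial genes that did not pass over pericyte-marker barcodes included the adhesion gene mcamb (165 and 196 CPM in endothelial barcodes, against 41.8 and 50.1 CPM in pericyte-marker barcodes, just under 4-fold) and the hypoxia factor gene epas1b (103 and 106 CPM against 29.4 and 35.2 CPM). For ndufa4l2a the values were 34.3 and 51.7 CPM against 20.2 and 19.6 CPM. With only the 17 and 32 endothelial barcodes that had fewer than 3 pericyte markers, 140 of the 150 genes met the rule. The 10 that did not were XLOC_005794, abcc2, aqp8a.1, colec11, cxcr4a, epas1b, mrc1b, ndufa4l2a, pdgfbb and tgfbr2a. Their median depth was 14036 and 14553 UMIs, below that of all endothelial barcodes.

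Genes at least 4-fold lower in endothelial than in other kept barcodes numbered 41 of 3584 that could pass (1.14%). They included 5 of 7 neuron markers and 3 of 6 chondrocyte markers. The cartilage collagen gene col2a1a stood at 140.1 and 232 CPM in endothelial barcodes against 2429 and 2602 CPM in the others, and col11a2 at 8.40 and 9.60 CPM against 316 and 363 CPM. The neuronal RNA-binding protein gene elavl3 stood at 8.40 and 9.14 CPM against 129 and 139.8 CPM. The muscle parvalbumin gene pvalb2 had 23.8 and 22.4 CPM against 513 and 571 CPM.

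In the bulk data the question was whether the enriched genes differ between um148 and wild-type. Every value in this account comes from the authors' deposited table, in which a gene was taken as called at an adjusted p under 0.05. Bulk values cannot tell apart fewer endothelial cells and less RNA per cell. Normalized counts summed to 16997792, 19409286 and 21231786 in um148 libraries 1, 2 and 3. Among all 16853 genes with an adjusted p, 864 were lower in um148 (5.13%) and 1041 were higher (6.18%). Over all listed genes the fold change, um148 over wild-type, had a median of 0.02 on the log2 scale.

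Of the 150 enriched genes, 114 are in the authors' deposited table and 110 have an adjusted p. The authors' deposited table calls 15 of these lower in um148 (13.6%) and 4 higher (3.64%), where the 114 genes have a median of -0.23 on the log2 scale and 67 are negative. Of all 17540 genes in the authors' deposited table, 8524 are negative. The share called lower is above that over all genes, and the share called higher is below it, and the genes are not independent of each other. In the 93 that were also 4-fold over pericyte-marker barcodes, the authors' deposited table calls 8 lower of 89 with an adjusted p (8.99%) and 3 higher, with a median of -0.12. In the 21 that were not, the authors' deposited table calls 7 lower (33.3%) and 1 higher, with a median of -0.67. The difference between these shares was not tested. Set against the wild-type mean that the authors' deposited table implies, the enriched genes had medians of -0.08, -0.41 and -0.23 in um148 libraries 1, 2 and 3 (log2 scale, pseudocount 0.5), and all genes had -0.01, -0.04 and -0.04.

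The choosing genes were not called in either direction. In the authors' deposited table cdh5 had normalized counts of 170.5, 95.8 and 117 in um148 libraries 1, 2 and 3, with a log2 fold change of -0.25 (um148 over wild-type, adjusted p 0.736). Normalized counts of kdrl were 705, 682 and 826, with a log2 fold change of 0.22 (adjusted p 0.643 in the authors' deposited table). Those of pecam1 were 73.6, 32.9 and 26.7, with a log2 fold change of 0.38 (adjusted p 0.793 in the authors' deposited table). Library 1 was the highest of the 3 for cdh5 and pecam1. For tie1, cldn5b and fli1a the log2 fold changes in the authors' deposited table were -0.40, -1.01 and 0.31, with adjusted p-values of 0.657, 0.164 and 0.652, and plvapa is not listed. A p that misses the threshold does not show equal levels, and the um148 libraries varied widely.

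**Figure D5:**
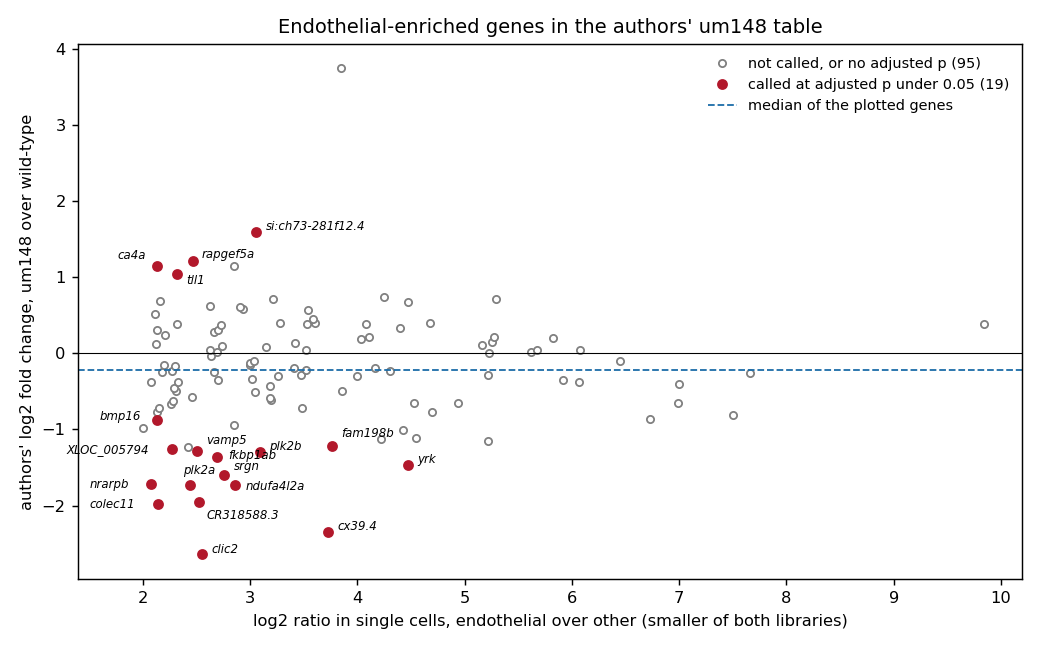
Authors' log2 fold change of um148 over wild-type (vertical axis) for the 114 enriched genes in the authors' deposited table, against the smaller of the single-cell log2 ratios of both libraries (horizontal axis). Filled points are the 19 genes called at an adjusted p under 0.05, and the dashed line is the median of -0.23. Choosing genes are among the points, and their single-cell ratio follows from the rule. Open points include genes with no adjusted p, such as flt1 and etv2, which could not be called.

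The lower calls were led by clic2, a chloride intracellular channel gene. Its normalized counts were 223, 86.9 and 96.1 in the um148 libraries, with a log2 fold change of -2.64 (adjusted p 1.1e-08) in the authors' deposited table. The connexin gene cx39.4 had 56.5, 32.9 and 87.2, with a log2 fold change of -2.34 (adjusted p 0.00013) in the same authors' deposited table. In single cells both genes were at least 4-fold higher in endothelial barcodes than in pericyte-marker barcodes, with cx39.4 at 42.7 and 41.2 CPM against 6.53 and 7.03 CPM. Of all clic2 UMIs in kept barcodes, 14.1% and 17.6% lay in endothelial barcodes, and of cdh5 UMIs, 84.9% and 88.6%. Other kept barcodes thus held most of the clic2 transcripts. Over the 15 lower genes the median share was 14.1% and 18.3%, and over the 4 higher genes 19.0% and 13.9%. Over the 91 enriched genes tested and not called it was 23.3% and 26.0%, with a range from 10.0% to 99.2% in library 1. Endothelial barcodes held 2.71% and 2.97% of all UMIs.

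Other lower genes among the 10 with the lowest fold change in the authors' deposited table were colec11, CR318588.3, the polo-like kinase gene plk2a, ndufa4l2a, the Notch-regulated nrarpb, the proteoglycan gene srgn, the Src-family kinase gene yrk and fkbp1ab, between -1.98 and -1.37. The authors' deposited table gives ndufa4l2a a log2 fold change of -1.73 (adjusted p 0.000197) from normalized counts of 262, 279 and 273 in um148. The 4 higher genes in the authors' deposited table had log2 fold changes of 1.59 for si:ch73-281f12.4, 1.21 for rapgef5a, 1.14 for ca4a and 1.05 for the protease gene tll1. The list of 32 endothelial genes without the choosing ones has 22 with an adjusted p, enriched members included. The authors' deposited table calls 4 of them lower (18.2%) and 1 higher (4.55%), against 5.13% and 6.18% over all genes. All of these missed the enriched rule. Lower were the sphingosine receptor gene s1pr1 (log2 fold change -0.99), the adrenomedullin receptor component ramp2 (-0.93), the phosphatase gene dusp5 (-2.52) and tm4sf18 (-1.91). Higher was heg1 (0.95).

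Both Pdgf ligand genes were low in the bulk libraries. Normalized counts of pdgfba in the authors' deposited table were 84.7, 54.9 and 133 and those of pdgfbb were 61.5, 15 and 32.7, and the log2 fold change was -0.66 for each (adjusted p 0.366 and 0.538). The receptor gene pdgfrb is called lower in the authors' deposited table, with a log2 fold change of -1.21 (adjusted p 0.0014). Of 12 listed brain barrier genes, the authors' deposited table calls cldn5a (log2 fold change -1.16) and mfsd2ab (-0.80) lower and slco1c1 (1.51) and reck (0.99) higher. This is 16.7% in each direction, against 5.13% lower and 6.18% higher of all genes with an adjusted p. In single cells none of 13 measured brain barrier genes was enriched. Their summed level was 356 and 647 CPM in endothelial barcodes, against 306 and 342 CPM in other kept barcodes. The bulk calls are over all reporter-positive cells and cannot be placed in the endothelium. In the authors' deposited table none of 6 listed venous genes was called, with adjusted p-values down to 0.196, and of 7 lymphatic genes tbx1 was called higher.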

How the data were processed

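Single-cell matrices hold UMI counts per gene and barcode, deposited by the authors after barcode calling (10x software 3.1.0, per the file headers). The authors' deposited table of bulk cells holds a normalized signal per um148 library, p-values, log2 fold changes, their linear ratio, a test statistic (a score) and −log10 adjusted p-values, all as deposited by the authors. CASAVA 1.8.2, STAR, RSEM, DESeq2, Cell Ranger 3.1.0 and GRCz11 are named in the submitters' processing notes, without roles. Fold changes were read as um148 over wild-type because the wild-type total this implies, 20284258, is near the um148 mean of 19212955, whereas the other direction implies 91949403. Of 17540 genes, 687 have no adjusted p and were not called. The 3 wild-type columns were not used.

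UMIs were summed per library over endothelial and other barcodes and scaled to CPM. Sums under 3 counts were set to 3 for folds. No count model was fitted, since the members were chosen on the same counts. Doublet scores came from scanpy 1.11.5 (30 principal components). Calculations used Python 3.11.15, numpy 2.4.6, pandas 2.3.3 and scipy 1.17.1, with exact binomial intervals. On simulated counts for the real genes the size rule was tested and called the genes raised 8-fold, none raised 2-fold and no unchanged gene. The simulation drew summed counts with counting noise only and gave every gene full detection. Raised genes were drawn only from those with at least 20 CPM in other kept barcodes of library 1. The simulation therefore did not try the 10% detection limit, the spread between barcodes or the choice of members by depth. Nor did it raise genes that are low in other barcodes, such as cdh5. Named genes were the 7 choosing genes, the 20 enriched genes of largest smaller fold, enriched members of 29 lists (or the most abundant), pdgfba, pdgfbb and pdgfrb, and up to 10 called enriched genes in each direction of the authors' table. Members and lists were chosen with earlier results of these data known. Other genes were named after their values were seen, including those of the barrier and scavenger groups. Alternatives were the number of choosing genes, the mitochondrial limit, doublet removal, other reference barcodes, equal barcode weights, the fold, CPM and detection limits, and leaving out each library. Genome positions and sequences are not given.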

Additional observations from a re-analysis of the deposited data

Results flagged for a closer look

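Barcodes removed by the filters also held UMIs of the 7 choosing genes, a signal outside the barcodes compared. There were 351 such UMIs in library 1 and 73 in library 2. Scaled to the UMIs of removed barcodes these are 20.01 and 16.7 CPM, against 33.4 and 31.5 CPM in other kept barcodes and 1048 and 1080 CPM in endothelial barcodes. In each library, 1 removed barcode had at least 4 of the 7 genes.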

How the results depend on the processing

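The share of endothelial barcodes, 0.882%, was 1.14% with at least 3 choosing genes and 0.696% with at least 5, and ran from 0.758% to 1.01% when a library was left out. The 150 enriched genes became 404 at 2-fold, 231 at 5 CPM and 247 without endothelial barcodes of 3 or more pericyte markers, and 172 to 215 with 1 library left out, which hold the 150 by construction. Against other barcodes of like depth, a choice made after seeing the data, 181 genes passed, 140 of the 150 among them. For 40 named genes, 480 log2 ratios under 12 alternatives held no change of direction in an enriched gene, and 179 moved by over the spread between libraries. Of 120 shares with a UMI, 90 moved by over that spread. Enriched genes began at least 4-fold higher, so a change of direction in them was unlikely from the outset. In named genes that missed the rule, such a change was counted only as a move. One of these was pdgfrb, which fell below other kept barcodes once endothelial barcodes of 3 or more pericyte markers were left out. The 19 enriched genes called by the authors (15 lower, 4 higher) became 67 (52 lower, 15 higher) for the 2-fold list, 5 (4 lower, 1 higher) for the 8-fold list and 11 (8 lower) for genes also 4-fold over pericyte-marker barcodes, an alternative added after seeing the data. With 1 single-cell library left out they numbered 23 to 24 (16 to 18 lower, 6 to 7 higher). The median of -0.23 ran from -0.20 to -0.18 without a single-cell library and from -0.21 to -0.14 without a um148 library, against the wild-type mean implied by the table. Lists of other sizes hold other numbers of genes; other causes were not tested. No paired analysis was possible because the um148 and single-cell libraries share replicate numbers but are never compared. Limits are the 45 and 79 endothelial barcodes, their depth, 2 libraries of 1 group, and a test of the genotypes that is the authors' alone.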

Other observations

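The xenobiotic enzyme gene cyp1a was enriched in endothelial barcodes, at 145 and 134 CPM against 10.1 and 9.18 CPM in other kept barcodes, with a UMI in 48.9 and 49.4% of endothelial barcodes. In the authors' deposited table it has the highest log2 fold change of the 114 enriched genes, 3.74, with no adjusted p. Its normalized counts were 199, 4468 and 55.5 in um148 libraries 1, 2 and 3, with library 2 far above the other libraries.

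The chemokine receptor gene cxcr4a had 29.4 and 123 CPM in endothelial barcodes of libraries 1 and 2, against 6.07 and 6 CPM in the others. In library 1 the barrier group held 10 UMIs of it in 2 of 3 barcodes (103 CPM), against 13 UMIs in 4 of 12 scavenger barcodes (43.5 CPM). In library 2 the barrier group held 170 UMIs of it in 5 of 8 barcodes (616 CPM), against 7 UMIs in 3 of 26 scavenger barcodes (10.4 CPM).

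Cell division genes were detected in many endothelial barcodes. At least 3 of 12 had a UMI in 53.3 and 58.2% of endothelial barcodes, against 45.3 and 45.5% of other barcodes of like depth. Their summed level was 508 and 504 CPM in endothelial barcodes against 444 and 506 CPM, so it was not higher in library 2. In endothelial barcodes with fewer than 3 pericyte markers, which were shallower, the share was 23.5 and 31.25%. In the authors' deposited table, lower levels in um148 were called for 6 of 11 listed ones (cdk1, ccnb1, ube2c, tpx2, aurkb and mki67), over all reporter-positive cells, against 5.13% called lower of all genes with an adjusted p.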
